A study of Mus musculus with 6 samples.

Results

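The 10 genes described here are SNAI1, SNAI2, TWIST1, ZEB1 and ZEB2, which encode transcription factors of the epithelial to mesenchymal transition (EMT), the splicing factor genes ESRP1 and ESRP2, the cadherin genes CDH1 and CDH2, and VIM, which encodes the intermediate filament vimentin. They were chosen by symbol, and all 10 were among the 17144 genes with counts. They were read in 6 RNA-seq libraries, 3 titled D and 3 titled C, all made from cells that the labels call SaOS2, which is an established human line from an osteosarcoma. The series concerns a compound named DDTC(I), but no label spells out the letters, a dose or a time, so neither group is called treated. Differences are given as D minus C. Separate cultures are not mentioned in the labels, so p-values reflect only the spread among the deposited libraries, which may be technical.

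In EMT, epithelial cells that are joined through E-cadherin, the product of CDH1, lose these contacts and take on a migratory, mesenchymal form with N-cadherin (CDH2) and vimentin. The SNAI, ZEB and TWIST factors drive this change, and SNAI1, SNAI2, ZEB1 and ZEB2 repress CDH1 directly. ESRP1 and ESRP2 are RNA-binding proteins of epithelial cells that favour the epithelial splice forms of genes such as FGFR2 and CD44. Osteosarcoma is a tumour of mesenchymal cells. Counts per gene do not show splice forms, which were not analysed here.

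Library totals ranged from 18446443 to 19802340 counts in D and from 18532763 to 20602771 in C, and 3 counts equalled between 0.146 and 0.163 CPM, which is a count per common library total. This limit covers counting error only. Libraries of a group differed by more than sampling noise, with a chi-square per degree of freedom between 6.21 and 90.5. The labels name the mouse as organism, but the symbols follow human naming. Of 8 osteoblast markers, 4 had over 3 counts in every library, while SP7, BGLAP and IBSP had at most 2. ALPL, the alkaline phosphatase for which SaOS2 is known, had 9 to 15 counts in D and 8 to 13 in C, which goes against the label. Of 7 epithelial markers, 4 passed the same level, with summed levels of 97.0 to 124 CPM in D and 87.2 to 96.9 in C before TMM scaling, nearly all of it from KRT8 and KRT18. CLDN4 (10 to 22 counts in D, 65 to 72 in C) and CLDN7 (3 to 6 in D, 9 to 12 in C) had fewer counts in each D library than in any C library. Unlike the epithelial sums, which lay above C in each D library before TMM scaling, the sums of 4 other marker lists lay below. They were 58.7 to 66.4 CPM in D against 206 to 267 in C for osteoblast markers. For smooth muscle they were 13.8 to 15.7 against 27.7 to 30.1, and for endothelial markers 13.7 to 14.8 against 21.4 to 26.3. For hematopoietic markers they were 443 to 482 against 505 to 528, nearly all from CD68. This last gap depends on the scaling, as TMM factors were 0.915 to 0.971 in D and 1.05 to 1.06 in C. Not all members fell. SPP1 had 29 to 51 counts in D and 2 to 10 in C, and the counts of ALPL, VWF, TEK and MYH11 overlapped. The neural sums overlapped, at 81.3 to 101 CPM in D and 84.6 to 88.3 in C. The part of these shifts in the results below was not tested. EPCAM, a defining epithelial surface marker, had 2 to 7 counts in D and 3 to 6 in C.

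All 10 genes passed the filter on low counts, and 7 differed between the groups in the edgeR quasi-likelihood test at a Benjamini-Hochberg adjusted p under 0.05, computed over all 12682 tested genes. SNAI1, SNAI2, ESRP1 and CDH1 were higher in D, and TWIST1, ESRP2 and CDH2 were lower. ZEB1, ZEB2 and VIM were not called. CDH1 passed the filter only through its counts in D, and ESRP2 only through its counts in C. Across the tested genes 54.4% passed, with 26.8% higher and 27.7% lower in D, so 7 of 10 is not far above the background. The median size of the log2 fold change was 0.92 for the 10 genes and 0.47 for all tested genes. With library size in place of TMM factors the median log2 fold change of all genes was −0.17 instead of −0.02, and 2586 genes were called higher and 4449 lower instead of 3393 and 3509. The 7 calls and their directions also held there.

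**Figure D1:**
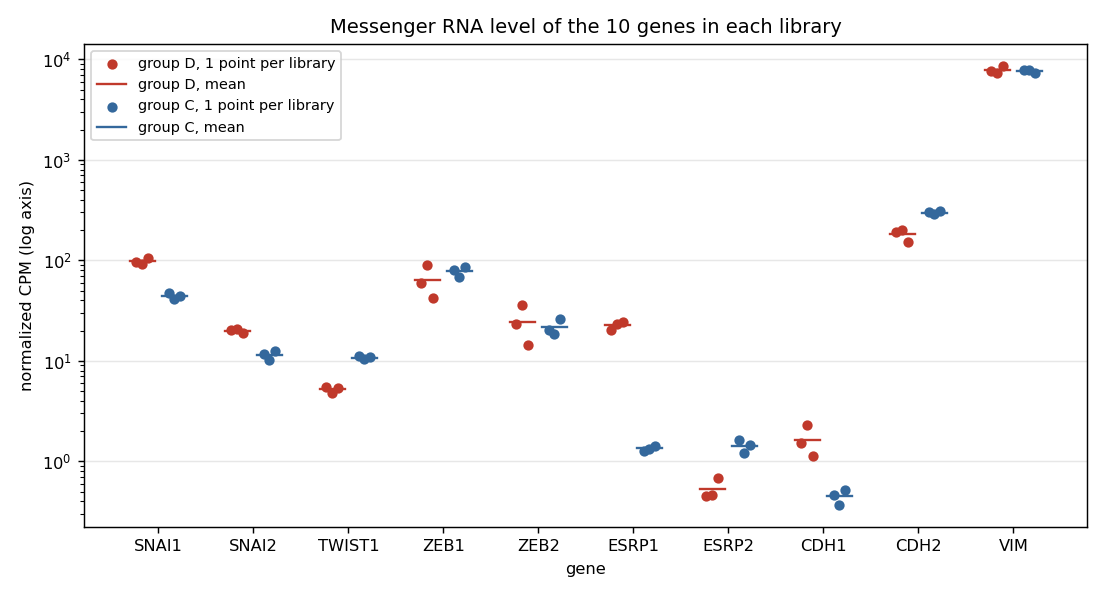
Normalized CPM of the 10 genes on a log axis, with 1 point per library and a line at the mean of each group, D left of C for each gene. ESRP1 lies at 20.2 to 24.4 CPM in D and 1.28 to 1.42 in C, VIM lies between 7280 and 8605 CPM in both groups, and the D points of ZEB1, ZEB2 and CDH1 are spread most widely.

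SNAI1 and SNAI2, the zinc finger repressors known as Snail and Slug, both rose. SNAI1 had 97.3, 92.7 and 107 normalized CPM in D replicates 1, 2 and 3, against 47.9, 41.5 and 44.0 in the C replicates. Every D library lay above every C library, and the log2 fold change was 1.15 ± 0.11 (SE; adjusted p = 7.2e-05, edgeR). SNAI2 had 20.4, 20.7 and 18.9 CPM in D, against 11.8, 10.3 and 12.6 in C. The groups did not overlap here either, with a log2 fold change of 0.79 ± 0.12 (adjusted p = 0.00083, edgeR). Per length, SNAI1 was the more abundant in every library. On the log2(FPKM + 0.1) scale the SNAI2 to SNAI1 ratio averaged −2.65 ± 0.17 in D and −2.28 ± 0.13 in C (SD, n = 3 each), a difference of −0.37 (p = 0.1 in an exact 2-sided permutation test, which can give no smaller value with 3 libraries a group).

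TWIST1, a basic helix-loop-helix factor of mesoderm and skull development, fell. It had 5.47, 4.84 and 5.33 CPM in D (97, 93 and 94 counts), against 11.1, 10.4 and 10.9 in C (216, 226 and 230 counts). The D libraries were all below the C libraries and close to each other, and the log2 fold change was −1.05 ± 0.12 (adjusted p = 0.0002, edgeR). Thus SNAI1 and TWIST1 changed by similar sizes in opposite directions in the same libraries.

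ZEB1 and ZEB2, large zinc finger and homeobox repressors, did not pass the test, and their D libraries were spread widely. ZEB1 had 59.8, 90.0 and 42.3 CPM in D replicates 1, 2 and 3, against 80.0, 68.4 and 85.0 in C. D replicate 2 lay above every C library and the other D libraries below them. The log2 fold change was −0.28 with a 95% interval of −0.83 to 0.27 (adjusted p = 0.35, edgeR). ZEB2 had 23.2, 35.6 and 14.5 CPM in D, against 20.3, 18.6 and 26.3 in C. The D libraries again lay on both sides of C, in the same order as for ZEB1. The log2 fold change was 0.17, with an interval of −0.49 to 0.83 (adjusted p = 0.64, edgeR), and it changed sign without D replicate 2 (−0.17) and on the deposited FPKM scale (−0.06 on log2(FPKM + 0.1)). Without D replicate 2 ZEB1 was called lower (−0.57, adjusted p = 0.015, edgeR), and without D replicate 3 ZEB2 was called higher (0.45, adjusted p = 0.036, edgeR) and ZEB1 was at −0.04.

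The D libraries differed from each other along gene length. In D replicates 1, 2 and 3, log2 CPM relative to the D mean changed by 0.01, 0.17 and −0.18 per doubling of gene length. In the C libraries, relative to the C mean, it changed by −0.05 to 0.05. ZEB2 (9265 bp) and ZEB1 (8199 bp) are the longest of the 10 genes. ZEB1 deviated by 0.56 in D replicate 2 and −0.53 in D replicate 3, where the trend of all genes of that length was 0.23 and −0.24. ZEB2 deviated by 0.63 and −0.66, with trends of 0.26 and −0.27. Both genes thus moved in the direction of the trend and further than it. The range over the D libraries was 1.09 for ZEB1, 1.29 for ZEB2 and 0.95 for CDH1, at or above the 90.7th percentile of all tested genes, whose median range was 0.42 (all log2). A further fit removed each library's length trend relative to the mean of all 6 libraries. It thus also removes a length trend between D and C, not only the spread within D. In that fit the log2 fold change was −0.10 for ZEB1 (adjusted p = 0.54, edgeR) and 0.36 for ZEB2 (adjusted p = 0.11, edgeR). The ZEB1 to ZEB2 ratio within each library, on the log2(FPKM + 0.1) scale, varied less. It was 1.50, 1.49 and 1.66 in D and 2.10, 2.004 and 1.83 in C. The D ratios were all below those in C, with a mean difference of −0.43 (exact permutation p = 0.1, 2-sided and the smallest possible).

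**Figure D2:**
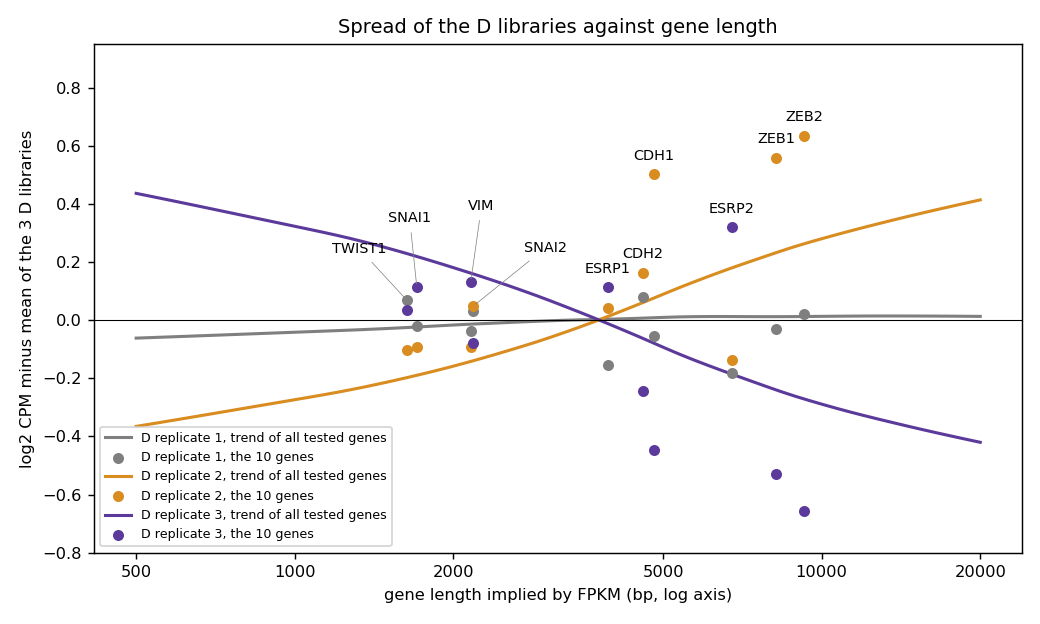
Deviation of each D library from the mean of the 3 D libraries in log2 CPM, against gene length on a log axis. Points are the 10 genes and lines the trends of all tested genes. In D replicate 2 CDH1, ZEB1 and ZEB2 lie at 0.50 to 0.63, and in D replicate 3 at −0.45 to −0.66, while ESRP2 and SNAI2 go against the trend.

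The epithelial splicing factor genes moved in opposite directions from similar low levels in C. ESRP1 had 359, 446 and 430 counts in D, against 25, 29 and 30 in C, or 20.2, 23.2 and 24.4 CPM against 1.28, 1.34 and 1.42. The lowest D library stood far above the highest C library. The log2 fold change of 4.06 ± 0.15, or 16.7-fold, was the largest of the 10 genes (adjusted p = 2.1e-06, edgeR). ESRP2 had 8, 9 and 12 counts in D, against 32, 26 and 31 in C. These are low counts, but the groups did not overlap (0.451 to 0.681 CPM in D, 1.20 to 1.64 in C), and the log2 fold change was −1.42 ± 0.28 (adjusted p = 0.0027, edgeR). Per length, ESRP1 accounted for 98.7, 98.8 and 98.4% of the summed FPKM of both genes in D, against 57.3, 65.7 and 62.5% in C. The means were 98.7 ± 0.23% and 61.8 ± 4.2% (SD, n = 3 each; exact permutation p = 0.1, 2-sided and the smallest possible). In D, ESRP1 at 5.45 ± 0.44 FPKM stood at the 61.0th to 64.8th percentile of all listed genes in each library, against the 31.4th to 32.3rd in C, where it had 0.361 ± 0.020 FPKM.

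The cadherin genes also moved in opposite directions, from levels that differed by orders of magnitude. CDH1 had 27, 44 and 20 counts in D, against 9, 8 and 11 in C, or 1.52, 2.29 and 1.13 CPM against 0.461, 0.370 and 0.521. All D libraries exceeded all C libraries, with a log2 fold change of 1.87 ± 0.34 (adjusted p = 0.002, edgeR). CDH1 stayed low in D, between the 29.8th and 34.4th percentile of listed genes by FPKM. Its deviations in D replicates 2 and 3, 0.50 and −0.45, exceeded the length trends of 0.08 and −0.08. CDH2 had 191, 202 and 153 CPM in D, against 300, 289 and 310 in C. It was lower in every D library than in any C library, and the log2 fold change was −0.72 ± 0.12 (adjusted p = 0.0014, edgeR). CDH2 still exceeded CDH1 by far in D, at 37.8 ± 6.5 against 0.327 ± 0.125 FPKM within the same libraries. The CDH2 to CDH1 ratio on the log2(FPKM + 0.1) scale was 6.63, 6.26 and 6.60 in D, against 8.42, 8.52 and 8.38 in C. It was lower in each D library, with a mean difference of −1.95 (exact permutation p = 0.1, 2-sided and the smallest possible). The size depends on the added constant, as CDH1 in C lies near it, and was −1.13 with 1 FPKM added and −2.555 as a plain ratio of CPM.

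**Figure D3:**
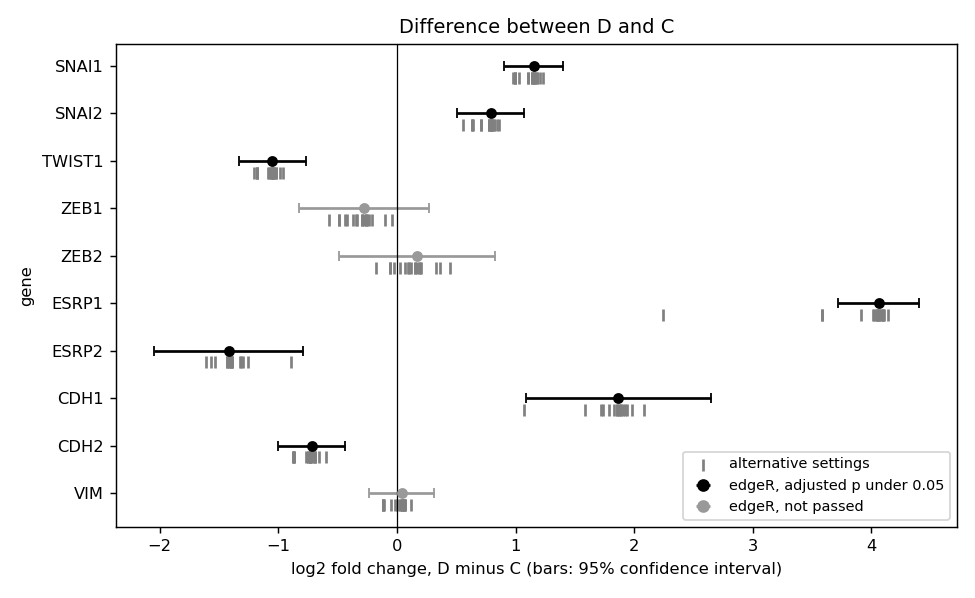
Log2 fold change, D minus C, of the 10 genes with 95% confidence intervals from edgeR, and below each the values under the alternative settings as ticks. The 7 genes that passed stay on their side of 0 under each alternative that gave a value, while the ticks of ZEB2 and VIM fall on both sides. The tick of ESRP1 at 2.24 is on the log2(FPKM + 1) scale.

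A difference in VIM was not detectable. It had 7664, 7377 and 8605 CPM in D, against 7818, 7884 and 7280 in C. D replicate 3 lay above every C library and the other D libraries within their range. The log2 fold change was 0.04, with a 95% interval of −0.23 to 0.31 (adjusted p = 0.79, edgeR), and −0.11 with library size only, so its sign depends on the scaling. By FPKM, VIM ranked 9th, 7th and 13th of all listed genes in D replicates 1, 2 and 3, and 2nd in each C library. Antisense genes are known at VIM, ZEB1 and ZEB2, and without a stated strand setting reads of such partners cannot be told apart.

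Ordered by mean FPKM, the 10 genes ran VIM, SNAI1, CDH2, SNAI2, ZEB1, ESRP1, TWIST1, ZEB2, CDH1 and ESRP2 in D. In D the libraries of SNAI2 and ZEB1, of ZEB1 and ESRP1, and of TWIST1 and ZEB2 overlapped. In C the order was VIM, CDH2, SNAI1, ZEB1, TWIST1, SNAI2, ZEB2, ESRP1, ESRP2 and CDH1, and no neighbours overlapped. SNAI1 stood at 55.0 ± 2.3 FPKM and CDH2 at 37.8 ± 6.5 in D, against 27.5 ± 2.0 for SNAI1 and 68.9 ± 2.8 for CDH2 in C, so their order was exchanged.

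Across the wider cadherin family more genes were lower in D than higher. Of 21 other cadherin genes 20 were listed and 10 passed the filter, of which 0 were called higher and 8 lower, with a median log2 fold change of −1.46. Over all tested genes 26.8% were higher and 27.7% lower. Without D replicate 3, 1 was higher (CDH13, 0.35). Among the genes called lower, CDH5, CDH8, CDH15 and CDH18 passed the filter only through their counts in C. The number lower and the median rest in part on them. CDH5, the cadherin of endothelial cells, fell to 9, 10 and 11 counts in D, against 82, 81 and 101 in C (−2.93 ± 0.22, adjusted p = 2.4e-05, edgeR). CDH18 had 12, 25 and 9 counts in D and 85, 118 and 107 in C (−2.56), and CDH6 had 18, 11 and 12 in D and 83, 82 and 104 in C (−2.51). By level the family was led by 3 genes, of which CDH13 and CDH11 were singled out after their values were seen. CDH13, a cadherin without a cytoplasmic tail, had 82.9, 99.4 and 57.7 FPKM in D, against 80.5, 76.6 and 79.5 in C, and its log2 fold change of 0.17 missed the threshold (adjusted p = 0.42, edgeR). CDH11, the osteoblast cadherin, had 21.3, 24.4 and 15.7 FPKM in D, against 51.2, 51.9 and 62.0 in C, and fell by 1.28 on the log2 scale (adjusted p = 0.00023, edgeR). CDH2 made up 27.2, 25.2 and 28.7% of the summed FPKM of the 22 listed cadherins in D, against 33.1, 32.8 and 32.5% in C. CDH1 made up 0.207, 0.272 and 0.203% in D, against 0.0485, 0.0400 and 0.0520% in C. By mean FPKM CDH1 was 6th of the 22 in D and 12th in C.

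**Figure D4:**
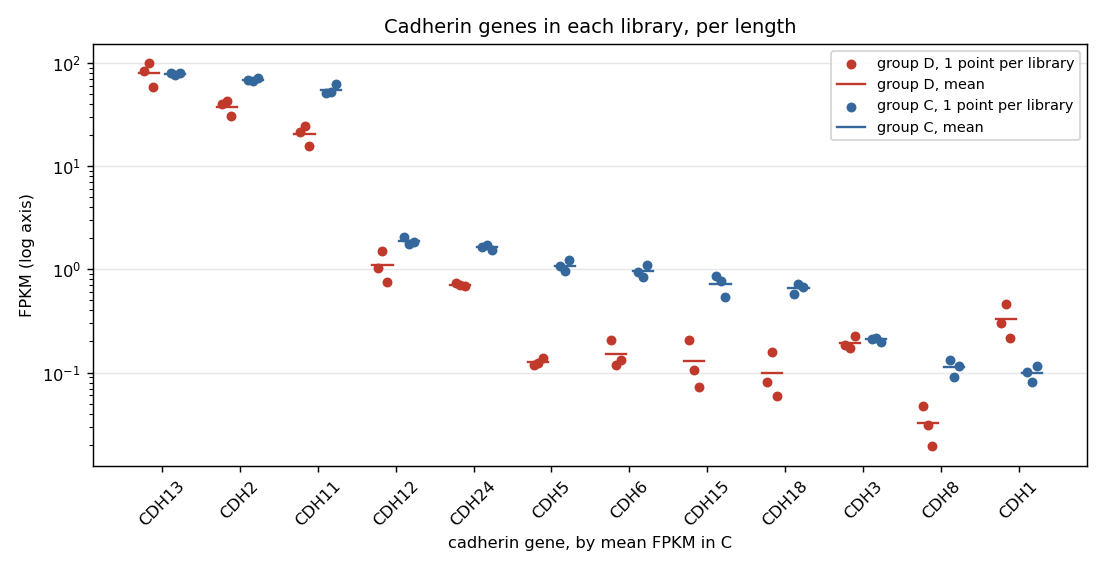
Deposited FPKM of the 12 cadherin genes with a group mean above 0.09 FPKM, on a log axis, with 1 point per library and a line at each group mean, D left of C. CDH1, at the right, is the gene whose D libraries lie above all C libraries, while CDH2 and CDH11 lie below and CDH13 and CDH3 overlap.

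Other transcription factors of EMT fell more often than they rose. Of 18 listed as a group 14 were tested, with 1 higher and 9 lower (5 lower without C replicate 3) and a median of −0.44, beside 26.8% higher and 27.7% lower over all tested genes. FOXC2, a forkhead factor, rose by 0.75 ± 0.13. SOX4 (−1.34) and TCF4 (−1.11) fell, SOX4 to 143, 171 and 174 counts in D, against 481, 480 and 444 in C. Of 17 transcription factors of epithelial cells 10 were tested, and 3 were higher and 4 lower (median −0.29). EHF, an ETS factor of epithelia, had 32, 58 and 38 counts in D and 5, 7 and 6 in C (2.99 ± 0.31, adjusted p = 0.00011, edgeR). EHF passed the filter only through its counts in D. KLF5 (1.33) and GRHL1 (1.07) were also higher, and TFAP2A (−1.38) and FOXA2 (−1.26) were lower.

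Among genes of epithelial junctions and surfaces that passed the filter, more were lower than higher. Of the 10 genes, ESRP1 and CDH1 rose, while ESRP2 fell. Of 39 such genes 18 were tested, with 2 higher and 9 lower (median −0.49), beside 26.8% and 27.7% of all tested genes. CLDN1, a tight junction claudin, had 74, 88 and 75 counts in D and 6, 13 and 9 in C (3.26 ± 0.24, adjusted p = 2.3e-05, edgeR). DSP, the desmosome protein desmoplakin, rose by 1.30 ± 0.34, a call lost in 1 of 16 alternatives. CGN, the tight junction protein cingulin, fell to 26, 23 and 28 counts in D, against 116, 123 and 147 in C (−2.13 ± 0.18). TJP3 had 2, 1 and 5 counts in D and 16, 20 and 16 in C, and SPINT1 2, 3 and 2 in D and 10, 16 and 14 in C, both called lower. Both passed the filter only through their counts in C, as did PKP3 and CLDN4, which were also called lower. CLDN1 passed it only through its counts in D. The filter left out MARVELD3, with 12, 8 and 9 counts in D and 0, 1 and 2 in C. It also left out CLDN7, which goes the other way, with 6, 3 and 5 in D and 12, 11 and 9 in C.

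Of 9 tested keratin genes 2 were higher and 3 lower (median −0.06), beside 26.8% higher and 27.7% lower over all tested genes. KRT16, a keratin of stressed epidermis, had 41, 42 and 54 counts in D and 5, 2 and 1 in C, and passed the filter only through D. KRT18, a keratin of simple epithelia, rose by 0.90 ± 0.14, and KRT80 (−1.15) and KRT15 (−1.08) fell. KRT86 was called lower (−0.40), but not in 8 of 18 alternatives, among them those without C replicate 1, 2 or 3 or D replicate 1 or 2 (−0.26 to −0.45). Keratin genes have close paralogs and pseudogenes, so the division of their reads is uncertain. Of 9 other intermediate filament genes 2 were higher and 4 lower (median −0.57), beside the same shares of all tested genes. LMNB1, which encodes lamin B1 (−2.18), the nestin gene NES (−1.95) and the desmin gene DES (−1.60) fell, while SYNC, which encodes syncoilin, rose by 1.29. NES passed the filter only through its counts in C. BFSP1 was called higher (0.34), but not in 10 of 18 alternatives, among them those without D replicate 1 or C replicate 1, 2 or 3 (0.27 to 0.40). Without BFSP1, 1 of these 9 genes was called higher.

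Catenins and nectins act with cadherins at adherens junctions. Of 8 tested, 1 was higher and 3 lower (median −0.37), beside 26.8% higher and 27.7% lower over all tested genes. With library size only 0 were higher and 5 lower. The nectin genes NECTIN1 (−1.86 ± 0.15) and NECTIN2 (−0.96 ± 0.10) fell. CTNNA1, the gene of alpha-catenin, was called higher (0.42), but not in 6 of 18 alternatives, among them library size only (0.27) and the fit without C replicate 1 (0.41). CTNNB1, the gene of beta-catenin, was called lower (−0.26), but not in 8 of 18, among them those without C replicate 1, 2 or 3 or D replicate 1 or 2 (−0.22 to −0.29).

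Among other splicing regulators linked to EMT, 16 were tested, with 5 higher and 6 lower (median −0.18). Over all tested genes 26.8% were higher and 27.7% lower. The SR protein genes SRSF3 (1.64 ± 0.17), SRSF6 (1.41 ± 0.13) and SRSF1 (0.71 ± 0.10) rose. RBM47, an epithelial RNA-binding protein gene, fell to 41, 50 and 29 counts in D, against 116, 135 and 126 in C (−1.46 ± 0.19, adjusted p = 0.00029, edgeR), and MBNL2 (−0.99) and PTBP2 (−0.90) also fell. Thus RBM47 and ESRP1 went in opposite directions, while ESRP2 fell as RBM47 did.

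Of 23 tested mesenchymal genes, 5 were higher and 11 lower (median −0.36), beside 26.8% higher and 27.7% lower over all tested genes. Without C replicate 1, 2 or 3 the number higher was 3, 2 and 2, and it was 3 with library size only. SPARC, which encodes osteonectin, fell to 681 ± 45 CPM in D, against 1912 ± 162 in C (−1.49 ± 0.12), and PDGFRB (−1.49) and FSTL1 (−1.31) fell too. TPM1 (0.72) and CALD1 (0.65), which encode actin-binding proteins, rose. FAP was called higher (0.58), but not in 3 of 16 alternatives, among them those without C replicate 2 (0.50) and without C replicate 3 (0.52). Over all 9 lists, 117 genes were tested, of which 21 were higher and 57 lower. These are 17.9% and 48.7%, beside 26.8% and 27.7% of all tested genes. Some of the called genes passed the filter only through the group where they are high, as named above.

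**Figure D5:**
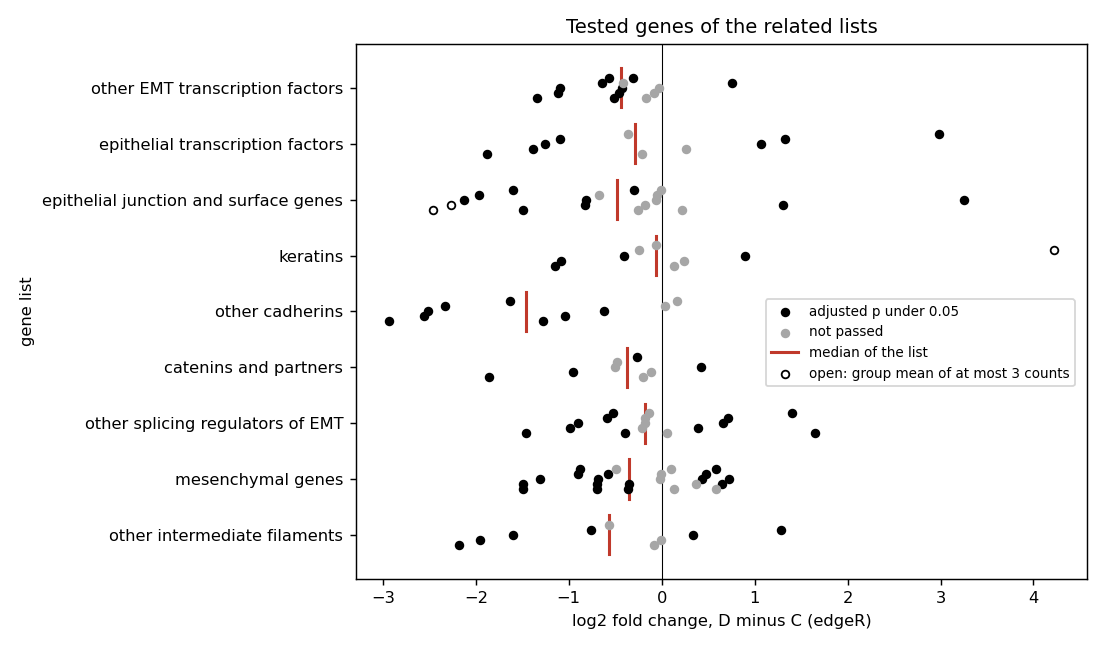
Log2 fold change, D minus C, of the tested genes of the 9 related lists, 1 point per gene, with a line at the median of each list. Medians run from −1.46 for the other cadherins to −0.06 for the keratins. Open points are TJP3, SPINT1 and KRT16, whose fitted values rest on a group mean of at most 3 counts.

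Genes with the most similar pattern were found by the root mean square distance of log2 CPM over the 6 libraries, each gene centred on its own mean, among all 12682 tested genes. Since the 6 libraries form 2 groups, nearness mainly reflects a like difference between D and C. For ESRP1 the nearest were EGR1 (distance 0.16), PPP1R15A (0.16) and CXCL8 (0.17), and for SNAI1 they were MAFK (0.05), IRF9 (0.06) and GCNA (0.07). For SNAI2 they were STAT6, MICALL1 and TAPT1 (0.05 to 0.06), and for TWIST1 C17orf58, PLEKHG5 and FAM189B (0.03 to 0.04). Genes near to CDH2 were MINK1 and SEPTIN8 (0.04 each). CDH1, with its wide spread in D, was nearest to SLFN5 (0.10), SLC38A1 (0.11) and CPEB1 (0.13). ESRP2 was nearest to FAM72D, SLC17A7 and STAG3 (0.08 to 0.11), of which FAM72D has near-identical copies that share its reads.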

How the data were processed

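The 6 RNA-seq libraries were grouped by the letter in their titles into D (n = 3) and C (n = 3). For each library the authors deposited whole-number counts per gene symbol and FPKM values of the same genes. Each deposited FPKM equalled the count divided by the library total and by a gene length common to all 6 libraries for 17144 of 17144 genes (relative tolerance 0.001), and those lengths were used here. The submitters' processing notes name the builds GRCm38 and mm10. Aligner, counting program and strand are not given in the sources used.

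The counts went into edgeR 4.0.16 (R 4.3.3): filterByExpr (12682 genes kept, 4462 left out), TMM factors and the 2-sided quasi-likelihood F test with the group as the only term. P-values were Benjamini-Hochberg adjusted over all tested genes and called under 0.05. Standard errors are the size of the log2 fold change over the root of F, and the 95% interval uses the total degrees of freedom of that test. Levels are CPM normalized with TMM factors. The 18 alternatives were DESeq2 1.42.0, limma 3.58.1 (voom, and trend on log2 FPKM plus 1 or 0.1), RLE, upper quartile and library size scaling, other filters, a replicate block, each library left out, and removal of length trends (lowess span 0.4).

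The genes, the related lists and the alternatives were chosen with earlier results of these data known. From each list the text names up to 3 called genes per direction with the largest change and at least 10 counts in every library of a group. Genes named outside that rule are marked or are named for how they met the filter. Some genes that the rules give are not reported here. The labels do not say whether same-numbered D and C libraries share a culture or day, so the replicate number was not used as a block. Same-numbered libraries did not deviate together (correlations over genes of 0.00838, −0.397 and −0.365). These deviations carry the length trends of the libraries, so the correlations cannot decide whether the libraries are paired. The supplied reference is of the mouse and was not used, so no coordinates or sequences are given.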

Additional observations from a re-analysis of the deposited data

How the results depend on the processing

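Of the 10 genes, the 7 calls kept their direction and passed under each of the 18 alternatives that gave a value; CDH1 and ESRP2 gave none under the FPKM filter. ZEB2 turned to −0.026 with limma-trend on log2(FPKM + 1), −0.058 on log2(FPKM + 0.1) with or without the filter, and it ran from −0.17 to 0.45 with each library left out. ZEB1 ran from −0.57 to −0.044 and VIM from −0.014 to 0.12 in that way. VIM was −0.11 with library size only and on the FPKM scales, and −0.047 with the length trend removed. The cause was not tested. On the filtered scales of log2(FPKM + 1) and log2(FPKM + 0.1), 2213 and 2209 genes were called higher, against 3393, and 3908 and 3877 lower, against 3509. The list genes called higher numbered 13 on each, against 21, and those lower 49, against 57. The ESRP1 to ESRP2 ratio differed by 4.48, by 2.43 with 1 FPKM added and by 5.509 in CPM, and the CDH2 to CDH1 ratio by −1.13 and −2.555, since low values are near the constant. In a fit with a block for the replicate number, 5671 genes in place of 6902 and the same 7 of the 10 genes were called. No label says whether the numbers pair the libraries. Of 65 other named genes, 6 lost their call under some alternative. Low counts limit ESRP2 and CDH1 most.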
